A study of Mus musculus with 8 samples.

Results

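The 36 genes described here encode aminoacyl-tRNA synthetases of mouse T cells, 20 of them enzymes of the cytosol and 16 enzymes of the mitochondrion. They were chosen by name, as the listed enzymes of both compartments, and each was read from the probe with the highest mean signal among those annotated with its RefSeq transcripts. All 36 passed the filter on dim probes, out of 15138 genes tested in the series. Mars is named by its newer symbol, Mars1.

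The T cells came from the spleens of mice without Lsp1 (Lsp1-/-, called KO), backcrossed to C57BL/6 for 10 generations, and of wild-type C57BL/6 mice (Lsp1+/+, called WT) matched for age and sex and 8 to 12 weeks old. The study, which concerns T cell migration in rheumatoid arthritis, set 4 groups of 2 arrays: KO cells kept for 6 h with anti-CD3 and anti-CD28 antibodies (called stimulated), KO cells in medium, WT cells given the same antibodies, and WT cells in medium. These antibodies stand in for antigen and costimulation. Whether both arrays of a group stem from different mice, how the T cells were separated and which part of Lsp1 is deleted are not given in the labels. The spread behind each p-value is that between these samples only and may therefore be technical.

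An aminoacyl-tRNA synthetase joins an amino acid to the transfer RNA (tRNA) that carries it to the ribosome. Cytosolic and mitochondrial protein synthesis use separate sets of these enzymes, mostly from separate nuclear genes, and the mitochondrial set serves the few proteins encoded in mitochondrial DNA. Several cytosolic enzymes sit in a multisynthetase complex held together by scaffold proteins, and the enzymes fall into class I and class II by the fold of the catalytic domain. Resting T cells make little protein, and stimulation through the T cell receptor is known to raise protein synthesis.

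Promoters are shown because cytosolic synthetase genes include known targets of the transcription factor Atf4, which binds a composite C/EBP-ATF element, and of Myc, which binds the E-box. RefSeq windows of 300 bases (250 before to 50 after a gene's start, build GRCm38.p6) were matched by symbol for 27 of the 36 genes, 13 cytosolic genes with 13 windows and 14 mitochondrial genes with 15 windows. Of the cytosolic genes, Cars, Hars, Lars, Nars, Rars, Vars and Wars had no window, so their promoters were not searched. The stretches below all end before the start site and run 5′ to 3′ on the gene's strand. Capitals mark the C/EBP-ATF element (TGATGNAA, here as its reverse complement) or the E-box (CACGTG). The Aars stretch covers chr8:111033677-111033791 on the plus strand, from -165 to -51 relative to the start, and holds both. The Gars stretch is at chr6:55037959-55037990 (plus), the Tars stretch at chr15:11399659-11399685 (minus), the Iars stretch at chr13:49682049-49682078 (plus) and the Farsb stretch at chr1:78488919-78488948 (minus).
Aars: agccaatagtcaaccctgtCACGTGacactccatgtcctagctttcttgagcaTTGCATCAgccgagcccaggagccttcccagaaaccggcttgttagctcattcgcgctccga
Gars: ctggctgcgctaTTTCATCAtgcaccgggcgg
Tars: ccaggagtcccgTTGCATCAgctggtt
Iars: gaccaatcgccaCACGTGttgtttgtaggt
Farsb: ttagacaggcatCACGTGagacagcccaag

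The C/EBP-ATF element letters stood in 5 of the 13 cytosolic windows (Aars, Gars, Iars, Tars and Yars), in 0 of the 15 mitochondrial windows and in 3.97% of the 32851 windows of all genes. In Iars and Yars the match lay after the start site. E-box letters stood in 4 cytosolic windows (Aars, Farsb, Iars and Tars), in 1 mitochondrial window (Ears2) and in 7.15% of all windows. The E-box matches of Tars and Ears2 lay after the start site. Both strands were searched, and the same was done for an ETS site (CCGGAAG), a STAT site (TTCNNNGAA) and an interferon-stimulated response element. ETS site letters stood in 5 cytosolic and 4 mitochondrial windows and 8.86% of all windows. STAT site letters stood in 2 cytosolic windows, 1 mitochondrial window and 8.3% of all windows, and the response element letters in 1 cytosolic window (Qars), 0 mitochondrial windows and 3.44% of all windows. Letters of the ETS and STAT sites can overlap, as they did in Kars, and so can those of the STAT site and the response element. A match of letters is a description of the sequence, and binding was not measured.

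The values below are the log2 processed intensity of a probe minus the 75th percentile of its array, so a value of 0 is as bright as that percentile, and a probe's level cannot be set against another probe's. Differences are log2 fold changes with the standard error (SE) of a limma fit over all 8 arrays, and a gene is called at a Benjamini-Hochberg adjusted p below 0.05 over all 15138 genes. The 8 arrays lie on 1 slide, with stimulated arrays in one row and medium arrays in the other, and with KO and WT arrays in separate columns, so slide position cannot be told apart from stimulation or genotype. Lsp1 checked the labels. Its value was 3.69 and 3.65 in stimulated KO cells, against 7.06 and 6.99 in stimulated WT cells, and 3.64 and 3.48 in KO cells in medium, against 7.48 and 7.24 in WT cells in medium. All 4 KO arrays lay below all 4 WT arrays, a difference of -3.35 ± 0.13 after stimulation (limma adjusted p = 0.00268) and -3.79 ± 0.13 in medium (adjusted p = 0.00127). Lsp1 was not called after stimulation without WT stimulated replicate 2, where the difference was -3.39, nor in either condition without both KO replicate 2 arrays, with the KO arrays still below all WT arrays. The 14 T cell markers were well above background on every array.

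The KO replicate 2 arrays stood apart. Over the 11 of 14 neutrophil markers measured, the median difference from the WT medium mean was -1.59 and 3.07 on the stimulated KO arrays and -0.58 and 4.24 on the KO medium arrays, with replicate 2 the high value in both groups. Their summed linear level (in units of the array's 75th percentile) ran from 151.7 to 439.2 in stimulated KO cells, 190.8 to 766.6 in KO cells in medium, 143.1 to 145.9 in stimulated WT cells and 171.1 to 255.3 in WT cells in medium. For 9 of 10 erythroid and platelet markers the sums were 19.7 and 171.0 in stimulated KO cells, 19.7 and 158.7 in KO cells in medium, 45.7 and 23.0 in stimulated WT cells and 40.6 and 24.6 in WT cells in medium. The median of the 14 T cell markers over the WT medium mean was lower on replicate 2 in KO cells. It was 0.01 and -0.36 in stimulated KO cells and 0.09 and -0.37 in KO cells in medium. In stimulated WT cells it was -0.26 and -0.11, and in WT cells in medium -0.03 and 0.03. Beside these, the median of the cytosolic synthetases over the KO medium mean was 0.42 on stimulated KO replicate 1 and 0.64 on replicate 2, and the counts, the list medians and the changes of called genes in KO cells are therefore given with and without the replicate 2 arrays. The part of other blood cells in these values was not tested. In RNA from whole samples, fewer cells of a type and less RNA per cell cannot be told apart.

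A minority of the cytosolic synthetase genes passed the test in each genotype, all of them higher after stimulation. In KO cells 6 of the 20 cytosolic genes rose (Wars, Yars, Iars, Kars, Tars and Farsa) and 0 fell, where 5.85% of all genes rose and 2.27% fell. In WT cells 7 of 20 rose (Wars, Rars, Iars, Farsb, Kars, Aars and Eprs) and 0 fell, where 6.42% of all genes rose and 3.84% fell. The median log2 fold change of the 20 was 0.54 in KO and 0.50 in WT cells, against -0.08 and -0.09 over all genes. At an unadjusted p below 0.05, 16 were higher in KO cells, where 12.7% of all genes were, and 15 in WT cells, where 13.2% were, and 0 were lower in either. A gene called in a single genotype is not thereby shown to differ between genotypes, and the difference of the responses is tested below.

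**Figure D1:**
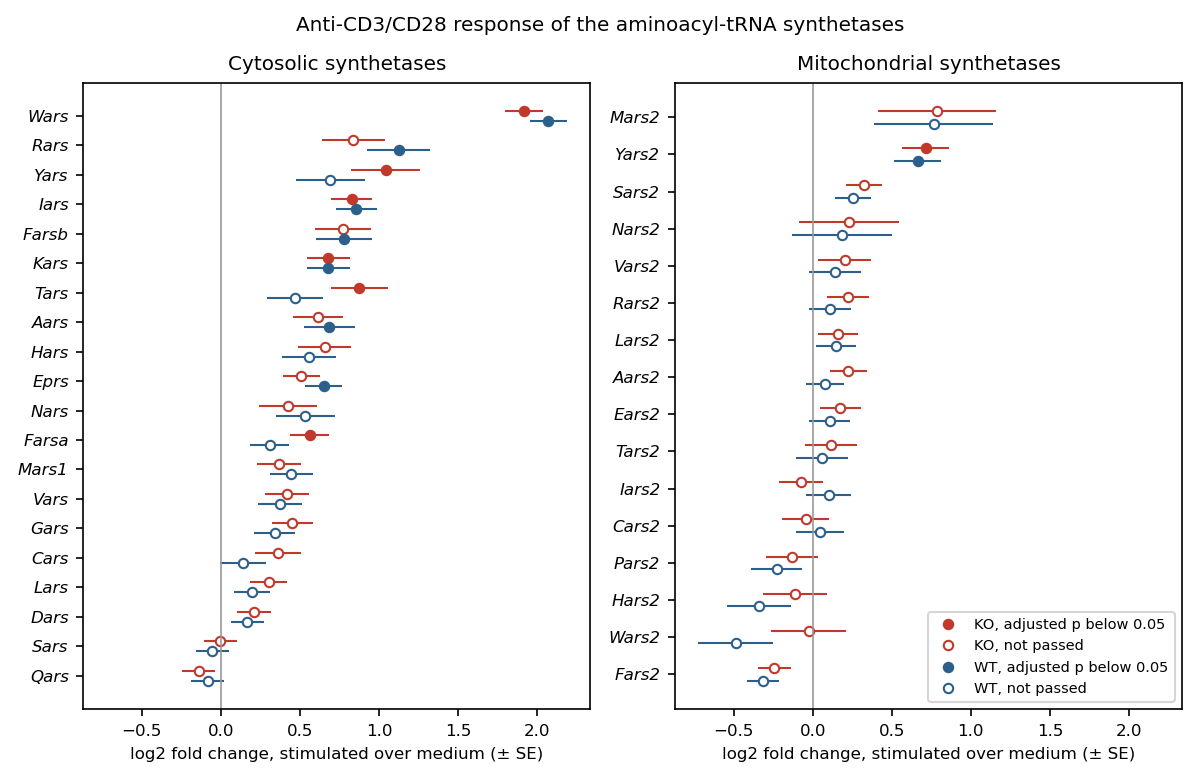
Log2 fold change of stimulated over medium cells (± SE, limma, 2 arrays a group) for each of the 20 cytosolic (left) and 16 mitochondrial (right) synthetase genes, KO in red above WT in blue, filled where the adjusted p was below 0.05. Wars lies farthest to the right at 1.92 in KO and 2.07 in WT cells, 18 of 20 cytosolic genes lie right of 0 in each genotype, and Yars2 holds the filled points among the mitochondrial genes.

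These counts depended on the arrays in the fit, which has 4 residual degrees of freedom, and the cause of the changes was not tested. The 6 in KO cells became 2 without WT medium replicate 1 or without WT medium replicate 2. They became 1 without KO medium replicate 1, KO medium replicate 2, WT stimulated replicate 1, WT stimulated replicate 2 or KO stimulated replicate 2, and 8 without KO stimulated replicate 1. The 7 in WT cells became 1 without either WT medium array or either WT stimulated array, 4 without either KO medium array and 8 without either KO stimulated array. Without both KO replicate 2 arrays, when the remaining KO arrays were assumed to vary like the others, the counts were 1 in KO and 9 in WT cells, and the cytosolic median in KO cells was 0.45. A fit of the KO arrays alone called 0 of the 20 in KO cells, and a fit of the WT arrays alone called 9 in WT cells. Among the genes called in KO cells, the log2 fold change without both KO replicate 2 arrays was 1.77 for Wars, 0.73 for Yars, 0.72 for Iars, 0.57 for Tars, 0.53 for Kars and 0.38 for Farsa, and Wars alone of the 6 was still called (adjusted p = 0.017).

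The mean of the KO and the WT response was added as a comparison after the data were seen, because it rests on all 8 arrays. In it 15 of 20 cytosolic genes rose and 0 fell, where 12.2% of all genes rose and 12.3% fell. The 15 were the 10 genes named above together with Gars, Hars, Mars1, Nars and Vars, and the other 5 (Cars, Dars, Lars, Qars and Sars) did not pass. The count was 9 without WT medium replicate 1, 6 without WT stimulated replicate 1, 8 without WT stimulated replicate 2 and 10 without both KO replicate 2 arrays. All 4 stimulated arrays lay above all 4 medium arrays for 17 of the 20 genes, where 15.6% of all genes did so, and Cars, Qars and Sars overlapped.

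Wars (chromosome 12), the tryptophan enzyme, is a known target of interferon gamma in other cells, and it had the largest increase of the 36 in both genotypes. Its value was 6.21 and 6.25 in stimulated KO cells, against 4.43 and 4.19 in KO cells in medium, and 6.44 and 6.46 in stimulated WT cells, against 4.40 and 4.37 in WT cells in medium. All stimulated arrays were high, with a gap of over 1 log2 unit to every medium array. The log2 fold change was 1.92 ± 0.12 in KO cells (3.78-fold, adjusted p = 0.00111) and 2.07 ± 0.12 in WT cells (4.20-fold, adjusted p = 0.000752). A second Wars probe gave 2.14 ± 0.14 in KO and 2.23 ± 0.14 in WT cells. Without Wars, the other 19 cytosolic genes had a median of 0.51 in KO and 0.47 in WT cells.

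Among the other class I enzymes, Iars (chromosome 13), the isoleucine enzyme, had values of 3.47 and 3.74 in stimulated KO cells, against 2.75 and 2.80 in KO cells in medium, and of 3.54 and 3.53 in stimulated WT cells, against 2.63 and 2.73 in WT cells in medium. The 4 stimulated arrays lay above the 4 medium arrays, a rise of 0.83 ± 0.13 in KO (adjusted p = 0.0168) and 0.86 ± 0.13 in WT cells (adjusted p = 0.0157). Rars (chromosome 11), the arginine enzyme, had values of -0.60 and -0.13 in stimulated KO cells, against -1.25 and -1.15 in KO cells in medium, and of -0.28 and -0.38 in stimulated WT cells, against -1.64 and -1.27 in WT cells in medium. Its groups did not overlap either, and its change was 0.84 ± 0.20 in KO cells, which did not pass (adjusted p = 0.0600), and 1.12 ± 0.20 in WT cells, which did (adjusted p = 0.0248).

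Yars (chromosome 4), the tyrosine enzyme, had values of -2.51 and -1.90 in stimulated KO cells, against -3.24 and -3.26 in KO cells in medium, and of -2.33 and -2.46 in stimulated WT cells, against -2.96 and -3.22 in WT cells in medium. Stimulated arrays were the higher ones in each genotype, and KO stimulated replicate 2, an array with high neutrophil markers, was the highest of all 8. The change was 1.04 ± 0.22 in KO (adjusted p = 0.0402) and 0.69 ± 0.22 in WT cells, where it did not pass (adjusted p = 0.0970).

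Of the class II enzymes, Kars (chromosome 8), which charges lysine tRNA in both the cytosol and the mitochondrion, had values of 4.94 and 5.22 in stimulated KO cells, against 4.41 and 4.40 in KO cells in medium, and of 4.95 and 5.01 in stimulated WT cells, against 4.22 and 4.39 in WT cells in medium. No stimulated array overlapped a medium array, and Kars rose by 0.68 ± 0.13 in KO (adjusted p = 0.0354) and by 0.68 ± 0.13 in WT cells (adjusted p = 0.0328). Farsb (chromosome 1), the beta subunit of the phenylalanine enzyme, had values of 2.89 and 3.23 in stimulated KO cells, against 2.30 and 2.28 in KO cells in medium, and of 2.91 and 2.94 in stimulated WT cells, against 1.96 and 2.34 in WT cells in medium. Its stimulated arrays were again all above its medium arrays, with 0.77 ± 0.18 in KO cells, which did not pass (adjusted p = 0.0547), and 0.78 ± 0.18 in WT cells (adjusted p = 0.0470).

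**Figure D2:**
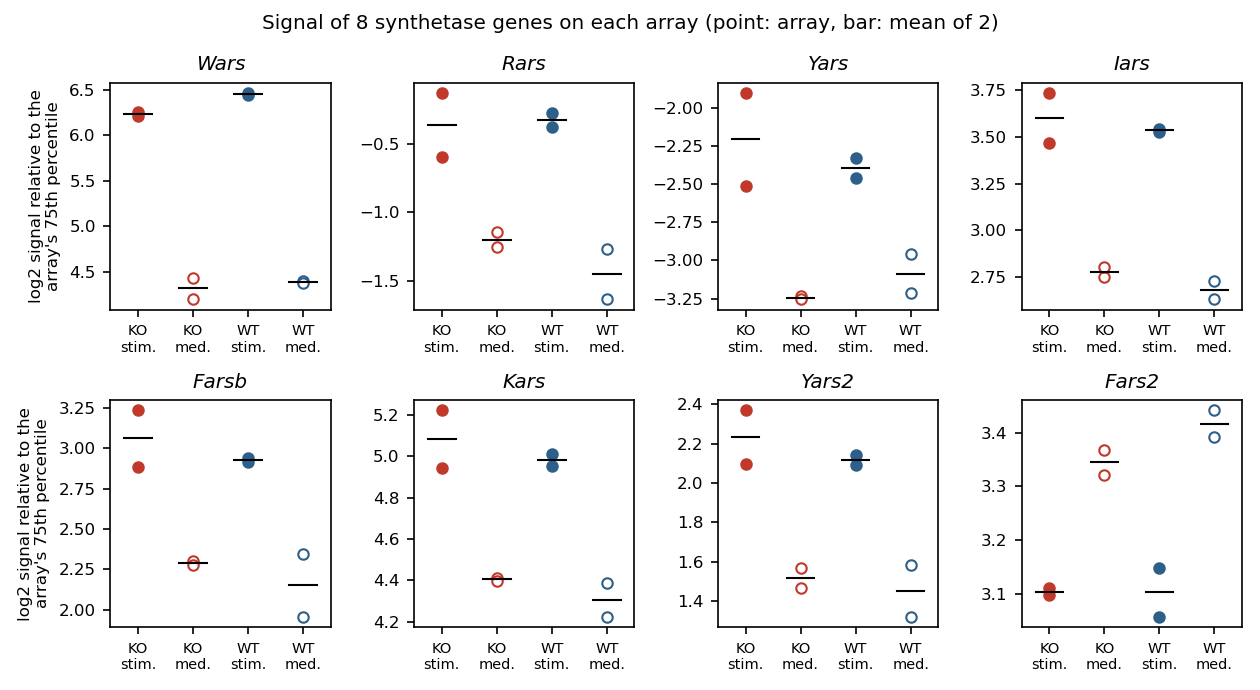
Log2 signal relative to the array's 75th percentile for 8 synthetase genes, with each point 1 array and the bar the mean of 2, in stimulated (filled) and medium (open) KO cells (red) and WT cells (blue). Stimulated points lie above medium points in the first 7 panels and below them for Fars2, and each panel has its own vertical range.

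A further 4 cytosolic genes passed in 1 genotype, with changes of the same direction in the other. Tars, the threonine enzyme, rose by 0.87 ± 0.18 in KO cells and stood at 0.47 ± 0.18 in WT cells. Farsa, the alpha subunit partner of Farsb, rose by 0.56 ± 0.12 in KO cells and stood at 0.31 ± 0.12 in WT cells, and a second probe gave 0.49 ± 0.15 in KO and 0.60 ± 0.15 in WT cells. Second probes were tested with p-values adjusted over all probes, and by that adjustment neither Farsa probe passed. Aars, the alanine enzyme, rose by 0.69 ± 0.16 in WT cells (limma adjusted p = 0.0487) and stood at 0.61 ± 0.16 in KO cells. With p-values adjusted over all probes the Aars probe did not pass in either genotype, and its second probe was too dim for the filter. Eprs, the fused glutamate and proline enzyme, rose by 0.65 ± 0.12 in WT cells and stood at 0.51 ± 0.12 in KO cells.

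Support for single genes varied with the processing and the arrays used. Over 20 alternatives Wars was called in WT cells under 20 and in KO cells under 19. Iars was called under 13 in KO and 16 in WT cells, Kars under 9 and 14, and Yars2 under 9 and 12. In WT cells Rars and Eprs were each called under 16, Farsb and Aars under 12. In KO cells Yars and Tars were each called under 9 and Farsa under 6. Each of these changes kept its direction under all 20.

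Serine and glutamine enzymes did not share the increase. Sars had values of 4.68 and 4.61 in stimulated KO cells, against 4.71 and 4.59 in KO cells in medium, and of 4.66 and 4.68 in stimulated WT cells, against 4.73 and 4.73 in WT cells in medium. Its change was -0.01 ± 0.10 in KO and -0.06 ± 0.10 in WT cells, and its sign turned under other scalings, to 0.03 in KO cells with another background correction (normexp) and to 0.05 in WT cells with arrays scaled to their median. Qars had values of 5.05 and 4.93 in stimulated KO cells, against 5.18 and 5.08 in KO cells in medium, and of 5.08 and 5.10 in stimulated WT cells, against 5.16 and 5.19 in WT cells in medium. Its change was -0.14 ± 0.11 in KO and -0.08 ± 0.11 in WT cells, where it was 0.02 with arrays scaled to their median. Dars, Lars and Cars, the aspartate, leucine and cysteine enzymes, had changes between 0.21 and 0.36 in KO and between 0.14 and 0.20 in WT cells and did not pass.

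Grouping the cytosolic genes by complex or class left the counts spread over all groups. Of the 8 enzymes of the multisynthetase complex 2 rose in KO and 4 in WT cells, with medians of 0.44 and 0.55, and of the 12 others 4 rose in KO and 3 in WT cells, with medians of 0.59 and 0.50. Of the 9 class I enzymes 3 rose in each genotype, with medians of 0.42 in KO and 0.44 in WT cells. Of the 10 class II enzymes 3 rose in each genotype, with medians of 0.59 in KO and 0.50 in WT cells. Eprs, which has both kinds of catalytic domain, was counted in neither class. Among the cytosolic genes with a promoter window, 6 hold C/EBP-ATF element or E-box letters and 6 of these (Aars, Farsb, Gars, Iars, Tars and Yars) rose in the mean of both genotypes. Of the 7 that hold neither, 4 rose in it (Eprs, Farsa, Kars and Mars1), and Dars, Qars and Sars did not pass. Over all genes 12.2% rose in that mean, a comparison added after the data were seen. In Yars the only match lay after the start site. Wars and Rars, which also rose in that mean, had no window. The letters of the other sites were not tallied, and they too stood in genes that rose. ETS letters stood in Farsa, Gars, Kars and Mars1, and in Sars, which did not pass. STAT letters stood in Aars and Kars, and those of the response element in Qars, which did not pass. Whether any of these letters go with a rise was not tested.

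Of the 16 mitochondrial genes 1 rose in KO cells and 1 in WT cells, in both cases Yars2, and 0 fell in either. These shares, each 6.25%, are near the 5.85% of all genes that rose in KO and the 6.42% that rose in WT cells, so the counts set the mitochondrial genes apart from other genes in neither genotype. At an unadjusted p below 0.05, 2 were higher in KO cells (12.7% of all genes), and 1 was higher and 1 lower in WT cells (13.2% and 16.3% of all genes). Their median log2 fold change was 0.17 in KO and 0.10 in WT cells, between that of the cytosolic enzymes and that of all genes. The call of Yars2 in KO cells was lost, leaving 0 of 16, without either WT medium array, either KO medium array, either WT stimulated array or KO stimulated replicate 2, and its call in WT cells was lost without any of the 4 medium arrays or either WT stimulated array. The median in KO cells was 0.28 when KO medium replicate 1 was left out, -0.02 when KO medium replicate 2 was, 0.05 when KO stimulated replicate 1 was and 0.09 without both KO replicate 2 arrays, and that in WT cells was 0.07 without WT stimulated replicate 1.

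Yars2 (chromosome 16), the mitochondrial tyrosine enzyme, had values of 2.09 and 2.37 in stimulated KO cells, against 1.47 and 1.57 in KO cells in medium, and of 2.14 and 2.09 in stimulated WT cells, against 1.32 and 1.58 in WT cells in medium. The 4 stimulated arrays were above the 4 medium arrays, and Yars2 rose by 0.72 ± 0.15 in KO (adjusted p = 0.0405) and by 0.67 ± 0.15 in WT cells (adjusted p = 0.0441). Without both KO replicate 2 arrays its change in KO cells was 0.63, which did not pass. Mars2 (chromosome 1), the methionine enzyme, which is described because of its size after its values were seen, had values of -0.53 and -1.27 in stimulated KO cells, against -1.65 and -1.72 in KO cells in medium, and of -1.36 and -0.38 in stimulated WT cells, against -1.79 and -1.48 in WT cells in medium. Its groups did not overlap, but its stimulated arrays lay far apart within each genotype, and 0.79 ± 0.37 in KO and 0.77 ± 0.37 in WT cells did not pass (adjusted p = 0.253 and 0.230).

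In the mean of both genotypes 2 mitochondrial genes rose, Yars2 and Sars2, and 1 fell, Fars2, so that the 12.5% of the list that rose is near the 12.2% of all genes. Fars2 (chromosome 13), the mitochondrial phenylalanine enzyme, had values of 3.10 and 3.11 in stimulated KO cells, against 3.37 and 3.32 in KO cells in medium, and of 3.06 and 3.15 in stimulated WT cells, against 3.44 and 3.39 in WT cells in medium. All 4 stimulated arrays were below all 4 medium arrays, as for 16% of all genes, and the mean change was -0.28 ± 0.07 (adjusted p = 0.0383). Sars2, the mitochondrial serine enzyme, rose by 0.29 ± 0.08 (adjusted p = 0.0460). The calls of Fars2 and of Sars2 were each lost when any 1 of the 8 arrays was left out, and both genes lie outside the rule by which genes were named. Stimulated arrays were all above medium arrays for 3 of 16 genes, Mars2, Sars2 and Yars2, near the 15.6% of all genes.

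The other 12 mitochondrial genes did not pass in any of these comparisons. Their changes ran from -0.13 (Pars2, proline) to 0.23 (Nars2, asparagine) in KO cells and from -0.49 (Wars2, tryptophan) to 0.18 (Nars2) in WT cells. Second probes of Cars2, Iars2, Pars2, Tars2, Vars2 and Wars2 did not pass either. Nars2 was well above background on 1 of 2 KO medium arrays, while the other 35 members were so on all 8 arrays. In KO cells in medium 14 of the 16 mitochondrial genes were lower on replicate 2, the array with high neutrophil markers, than on replicate 1, as were 67.3% of all genes.

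**Figure D3:**
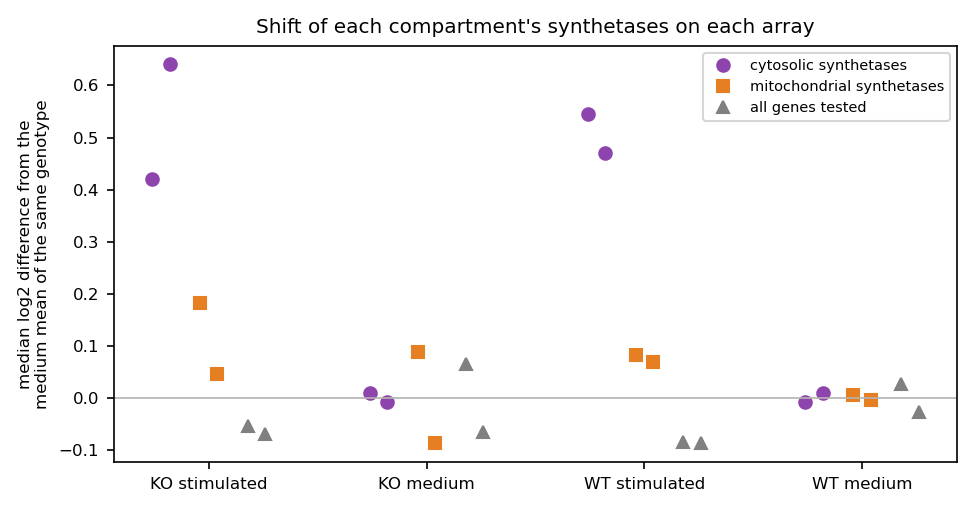
Median log2 difference from the medium mean of the same genotype, for the 20 cytosolic synthetases (circles), the 16 mitochondrial synthetases (squares) and all 15138 genes tested (triangles), with 1 point for each of the 8 arrays. On stimulated arrays the cytosolic medians lie between 0.42 and 0.64, the mitochondrial medians between 0.05 and 0.18, and the medians of all genes between -0.09 and -0.05.

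The same order showed on each array. On the stimulated KO arrays the cytosolic median was 0.42 and 0.64 above the KO medium mean, and the mitochondrial median 0.18 and 0.05. On the stimulated WT arrays the cytosolic median was 0.54 and 0.47 above the WT medium mean, and the mitochondrial median 0.08 and 0.07. The cytosolic median thus exceeded the mitochondrial one on all 4 stimulated arrays, by 0.24 and 0.59 in KO and by 0.46 and 0.40 in WT cells. These are descriptions of the 2 lists, and no test of lists was made.

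Matching enzymes by amino acid gave 17 pairs of a cytosolic and a mitochondrial gene, in which Eprs and Fars2 each stand in 2 pairs. The cytosolic change was the larger in 15 pairs in KO and in 15 pairs in WT cells, with a median difference of 0.40 in KO and 0.54 in WT cells. The tryptophan pair was farthest apart, by 1.94 in KO and 2.56 in WT cells. Wars2 had values of -0.79 and -1.07 in stimulated KO cells, against -0.70 and -1.11 in KO cells in medium, and of -0.89 and -0.87 in stimulated WT cells, against -0.11 and -0.68 in WT cells in medium. Its WT medium arrays differed from each other more than its stimulated KO arrays did from its KO medium arrays. The change of Wars2 was -0.03 in KO and -0.49 in WT cells, and a second Wars2 probe gave -0.14 ± 0.11 in each genotype. Methionine and serine ran the other way, with the mitochondrial gene ahead by 0.42 in KO and 0.32 in WT cells for methionine and by 0.33 in KO and 0.31 in WT cells for serine. The tyrosine pair, in which both genes passed in at least 1 genotype, differed by 0.32 in KO and 0.03 in WT cells.

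**Figure D4:**
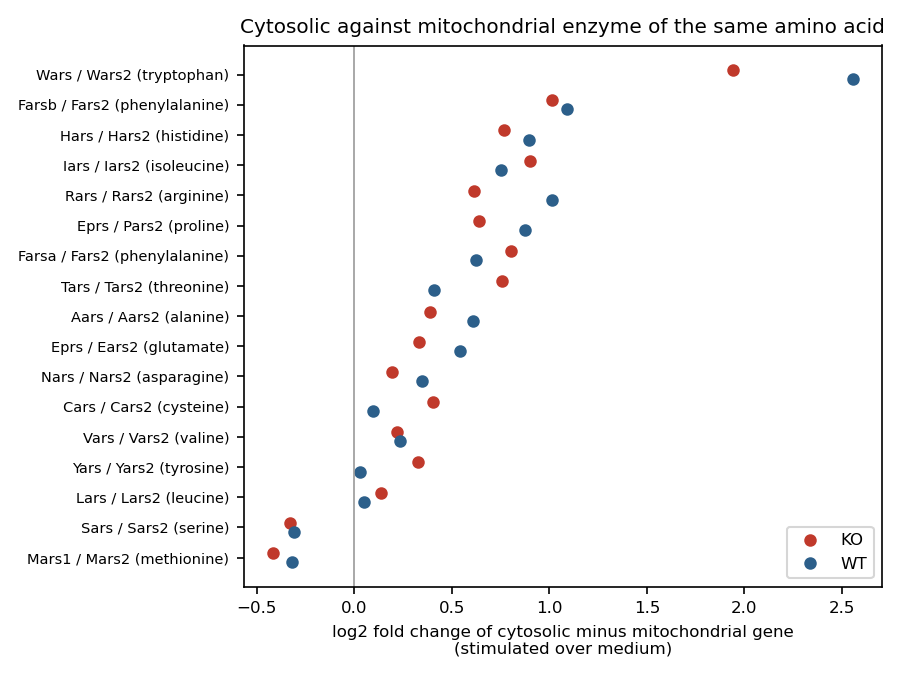
Log2 fold change on stimulation of the cytosolic minus that of the mitochondrial gene, for 17 pairs charging the same amino acid, KO in red above WT in blue. Points lie right of 0 for 15 pairs in each genotype, and the serine and methionine pairs lie left of it.

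Loss of Lsp1 came with no called change in any synthetase. After stimulation 0 of 36 members were called for KO minus WT, where 0.0198% of all genes were, and in medium 0 of 36, where 0.00661% were. The difference of both stimulation responses was called for 0 of 36, where 0.00661% of all genes were called. At an unadjusted p below 0.05 the counts were 0 after stimulation, where 5.03% of all genes passed, 1 in medium, where 5.71% did, and 0 for the difference of the responses, where 3.03% did. Without both KO replicate 2 arrays 0 of 36 were again called in each of the 3 comparisons. Since only 2 arrays stand in a group, a difference of moderate size could have been missed.

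The sizes of the differences were as follows. After stimulation the cytosolic genes differed by -0.22 to 0.27 (median 0.07) and the mitochondrial genes by -0.38 to 0.18 (median -0.02). In medium the cytosolic genes differed by -0.18 to 0.25 (median -0.02) and the mitochondrial genes by -0.51 to 0.11 (median -0.08). The 1 gene past the unadjusted threshold was Vars2 (chromosome 17), the mitochondrial valine enzyme, with values of -0.36 and -0.72 in KO cells in medium, against -0.07 and -0.13 in WT cells in medium, and of -0.20 and -0.48 in stimulated KO cells, against -0.03 and 0.11 in stimulated WT cells. Its KO arrays lay below its WT arrays in both conditions, with replicate 2 the lower KO array in each, and KO minus WT in medium was -0.44 ± 0.17 (adjusted p = 0.736). Beside these values the B cell markers were negative for 10 of 10 genes in both conditions (medians of -0.66 after stimulation and -0.57 in medium). Of 9 markers of natural killer cells, 9 lay below 0 after stimulation (median -0.37) and 8 did so in medium (median -0.55). Over all genes 59.1% were negative after stimulation and 60.3% in medium, and the part of these cells in the differences was not tested.

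Other genes of tRNA supply were described from lists of named genes, whose counts stand beside the 5.85% of all genes that rose in KO and the 6.42% that rose in WT cells. Of the 3 scaffold genes of the multisynthetase complex, Eef1e1 rose by 1.33 in KO (adjusted p = 0.0154) and 1.32 in WT cells (adjusted p = 0.0163), and Aimp2 rose by 1.21 in KO (adjusted p = 0.00819) and 1.08 in WT cells (adjusted p = 0.0120), while Aimp1 stood at -0.10 and -0.22 without passing. Of 18 genes of tRNA processing and export 6 rose in KO and 4 in WT cells, and 0 fell. Those called in both were Rpp25 (3.11 and 2.56 in KO and WT cells), Rpp40 (0.96 and 0.90), Rpp14 (0.57 and 0.68) and Pop1 (1.22 and 1.09), which encode subunits of the RNase P and RNase MRP enzymes. Xpot, the exporter of tRNA from the nucleus, stood at 0.67 in KO and 0.41 in WT cells without passing.

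Of 21 genes of RNA polymerase III transcription, which makes tRNA, 3 rose in KO and 2 in WT cells and 0 fell, which is 14.3% and 9.52% of the list, and Polr3d, a subunit of the polymerase, was among those called in both (1.01 in KO and 0.79 in WT cells). Of 6 genes that deliver charged tRNA to the ribosome 0 rose in KO cells and 1 in WT cells, Tsfm at 0.60, a mitochondrial elongation factor. Of 11 charging partners and editing genes 0 were called in either genotype by limma, with 0 at an unadjusted p below 0.05 in KO cells and 1, lower, in WT cells. Without both KO replicate 2 arrays, 0 genes of the scaffold, processing and polymerase III lists were called in KO cells, and 2, 6 and 3 in WT cells. Without WT medium replicate 1, WT stimulated replicate 1 or WT stimulated replicate 2 the counts of these 3 lists in WT cells were 0, and without KO medium replicate 2 those in KO cells were 0, 1 and 0. Tsfm was no longer called when any of the 4 medium arrays or either stimulated WT array was left out.

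Of 20 listed genes of the Atf4 amino acid response 19 were measured, and 1 rose and 1 fell in KO cells, and 3 rose and 1 fell in WT cells, with medians of 0.01 in KO and 0.05 in WT cells. In the mean of both genotypes 5 rose and 5 fell, 26.3% of the list in each direction, where 12.2% of all genes rose and 12.3% fell. Of those that fell, only Trib3 is described below. Atf3, a stress-induced transcription factor, rose by 2.61 in KO (adjusted p = 0.0106) and 2.11 in WT cells (adjusted p = 0.0198). Trib3, which encodes a pseudokinase and is a known Atf4 target, fell by 1.27 in KO (adjusted p = 0.0194) and by 1.67 in WT cells (adjusted p = 0.00948). In WT cells Slc7a5, the transporter of large neutral amino acids, rose by 1.31 and Psat1, of serine synthesis, rose by 1.1, and in KO cells they stood at 1.04 and 1.03 without passing. Atf4 itself stood at 0.21 in KO and 0.13 in WT cells, and Asns, the asparagine synthetase, at -0.06 and -0.18, none of them passing. The counts of the list in WT cells were 0 in both directions without WT medium replicate 1, WT stimulated replicate 1 or WT stimulated replicate 2, and those in KO cells were 0 in both directions without KO medium replicate 1.

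**Figure D5:**
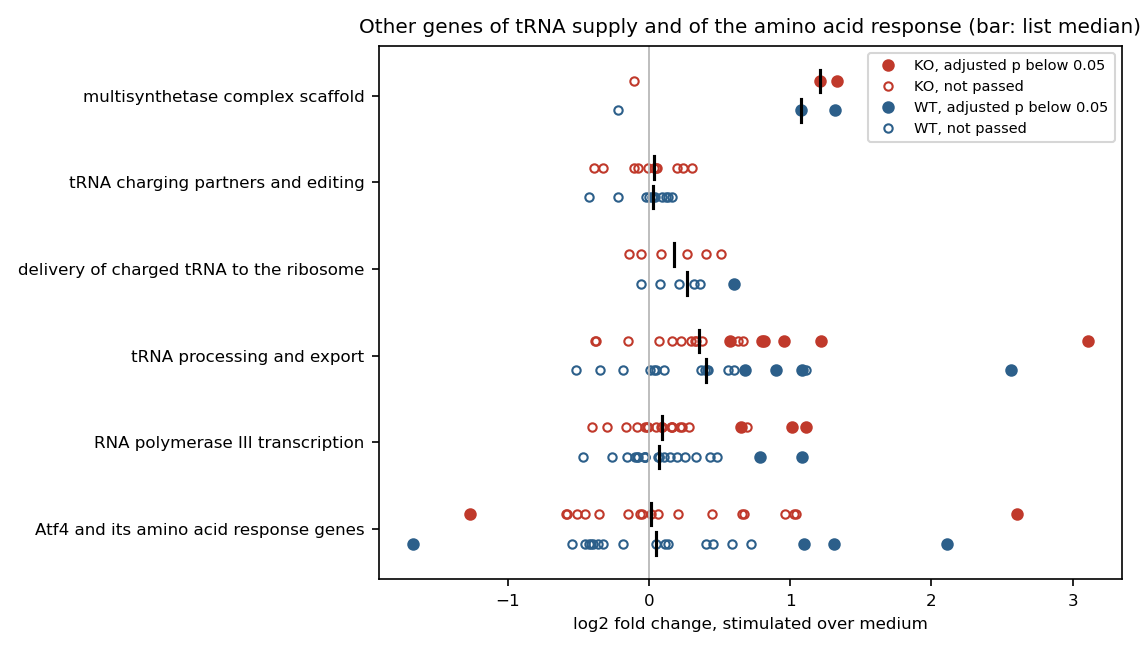
Log2 fold change on stimulation of each measured gene in 6 lists of tRNA supply and the Atf4 response, KO in red above WT in blue, filled where the adjusted p was below 0.05, with a bar at the list median. The scaffold medians lie at 1.21 in KO and 1.08 in WT cells, the processing medians at 0.35 and 0.40, and those of the Atf4 list at 0.01 and 0.05.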

How the data were processed

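RNA of 8 mouse T cell samples was measured on Agilent 1-colour arrays of 62976 spots, of which 3671 were controls. The authors deposited scanner tables, made per the file headers with version 10.7.1.1 of Feature Extraction, which give an intensity per spot (the processed signal is background-subtracted), and a series value table whose intensity equals the scanner's median signal (0 spots differed), linear and not centred, with column medians of 105 to 117. The file headers name build mm9. The 75th percentile of the processed signal was 1200 to 1469, and 58.4% to 69.2% of probes were well above background; the number of arrays limits precision.

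Spots without outlier flags were averaged per probe, log2 was taken and each array's 75th percentile subtracted. The filter kept the 37255 of 55681 probes that both arrays of some group showed well above background. Accessions matched to RefSeq (GRCm38.p6) named 26056 probes and left 29625 unnamed, and each gene took its passing probe with the highest mean, chosen for every gene alike. limma 3.58.1 (R 4.3.3) fitted group means over all 8 arrays, with 4 residual degrees of freedom, and p-values were adjusted by Benjamini-Hochberg. An exact permutation test of 2 against 2 arrays cannot go below p = 0.333 (two-sided), so none is given.

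The members and gene lists were chosen with earlier results of these data known. Genes named with every array's value were, in each compartment, the 6 with the largest mean change among members called in either stimulation comparison; Fars2, Sars2, Mars2, Vars2, Wars2, Sars and Qars were added after their values were seen. From the other lists, up to 4 genes called in both genotypes were named, and further ones after their values were seen; some genes of these lists are not reported here by name. The fit was tested on simulated data with known changes. Alternatives concerned background correction, scaling, filter, probe choice, samples in the fit, replicate blocks, prior trend and single arrays. The planned comparison of protein sequences was not run.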

Additional observations from a re-analysis of the deposited data

How the results depend on the processing

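With 2 arrays a group and 4 residual degrees of freedom, counts of called genes moved far more than fold changes did. Over 12 alternatives other than leaving out 1 array, the median change of the cytosolic synthetases ran from 0.446 to 0.55 in KO cells and from 0.477 to 0.606 in WT cells, and that of the mitochondrial synthetases from 0.091 to 0.173 in KO cells and from 0.079 to 0.21 in WT cells. The 6 cytosolic genes called in KO cells became 10 with normexp background correction, 2 with no filter on dim probes, 0 with only the groups compared, 12 with a prior trend and 1 without both KO replicate 2 arrays. The 1 mitochondrial gene called in KO cells became 0 with median scaling, with no filter, with only the groups compared and without both KO replicate 2 arrays, and the 1 called in WT cells became 0 with quantile normalization and with median scaling. In the mean of both genotypes, the 2 mitochondrial genes called higher became 1 with no filter and without both KO replicate 2 arrays, and the 1 called lower became 0 with median scaling and without both KO replicate 2 arrays. The cause of these changes was not tested, and leaving out arrays also lowered their number.

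Leaving out 1 array at a time gave 1 to 8 cytosolic genes called in KO cells, 1 to 8 in WT cells and 6 to 15 in the mean of both. It gave 0 to 1 mitochondrial genes called higher in KO cells, 0 to 1 in WT cells and 1 to 2 in the mean, with 0 called lower in the mean. The cytosolic median ran from 0.421 to 0.64 in KO cells and from 0.465 to 0.545 in WT cells, and the mitochondrial median from -0.018 to 0.282 in KO cells and from 0.068 to 0.124 in WT cells.

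The mitochondrial median in KO cells turned to -0.018 without KO medium replicate 2. Among single genes, Sars and Qars, whose changes were near 0, turned in sign. Sars in KO cells was 0.034 with normexp and 0.033 with the series value table, and -0.069 to 0.057 with 1 array left out, above 0 without KO medium replicate 1 (0.057) and without KO stimulated replicate 2 (0.028). In the mean of both genotypes Sars was 0.002 with normexp, 0.017 with median scaling, 0 with the value table and -0.062 to 0.001 with 1 array left out. Median scaling gave Sars 0.05 and Qars 0.02 in WT cells, and it moved the WT median of all genes to 0.015, against -0.09 with the 75th percentile.

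Across genes, same-numbered arrays deviated together in KO cells (correlation 0.742) and less in WT cells (0.161). Between genotypes they did not (-0.061 in medium and -0.244 after stimulation). KO replicate 2 had the high neutrophil markers both in medium and after stimulation. The labels name no mouse or day shared by a replicate number, so the main fit used no pairing. Whether same-numbered arrays share an origin was not tested. With a replicate block within genotype 11 cytosolic genes were called in KO cells, against 6 in the main fit. With a replicate block over all groups the mean of both genotypes had 1 mitochondrial gene higher and 0 lower. With the numbers crossed between genotypes, 0 of 36 synthetases were called in each of the 3 genotype comparisons.

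Lsp1 was no longer called with only the groups compared (adjusted p = 0.0753 after stimulation and 0.069 in medium) and without both KO replicate 2 arrays (0.0704 after stimulation and 0.17 in medium), where few degrees of freedom remained.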
